A study of Mus musculus with 3 samples.

Results

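Mouse bone marrow-derived dendritic cells kept with lipopolysaccharide (LPS), the endotoxin of Gram-negative bacteria, were compared with cells kept with phosphate-buffered saline (PBS), 1 array each. The comparison takes in every probe set, apart from controls, that the platform annotation pairs with exactly 1 gene symbol, which came to 34945 of the 45101 probe sets on the array. A probe set is a group of short probes read together as a single intensity. These probe sets stood for 18193 genes, each represented by its brightest probe set, and 12299 genes were measured, meaning that this probe set reached an intensity of 78.9, the median of all readings, on at least 1 array. The marrow of both groups came from female C57BL/6 mice aged 6 weeks. It was grown with 20 ng/mL of granulocyte-macrophage colony-stimulating factor (GM-CSF), and the nonadherent cells were collected on day 7. They then received LPS at 1 µg/mL or PBS for 24 h. The third array of the series, of cells given 100 ng/mL of an agent labelled PTX, entered the comparison only through the choice of probe set and the level for a measured gene, and its reading is printed for a few genes. The labels name no sort of the cells, and they do not say how many mice were used or whether the cultures shared a marrow preparation.

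Each group held 1 array, so the variation between cultures is unknown and differences could not be tested. Differences are therefore described by their size, as log2(intensity + 16) with LPS minus the same with PBS, and a gene is counted as higher or lower when the 2 readings were at least 2-fold apart on that scale (a log2 difference of at least 1). The intensity a gene reads depends on its probes, so levels are compared between arrays and not between genes.

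Lipopolysaccharide is bound by Cd14 and the pair of Tlr4 and Ly96 (MD-2) at the cell surface. The adaptor Myd88 then leads to NF-kB and the genes of inflammatory cytokines, while the adaptor Ticam1 (TRIF) leads to Irf3, interferon-beta and, through the interferon receptor, to the genes of antiviral defence. A dendritic cell that has met LPS stops taking up antigen, shows more antigen and costimulatory molecules on its surface and gains the chemokine receptor Ccr7, which guides it to lymph nodes. Cultures grown with GM-CSF hold macrophage-like cells beside dendritic cells.

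The LPS array was dimmer at its centre and brighter at its top than the PBS array. The median intensity was 85.7 with PBS and 65.3 with LPS, and 52.5% and 44.7% of the probe sets reached the measured level. The bacterial poly-A transcripts added to each RNA read higher on the LPS array in 24 of 24 probe sets, with a median log2 difference of 0.26. Hybridization controls read higher on that array in 14 of 18 probe sets, with a median log2 difference of 0.20. For 18S ribosomal RNA the 3′ reading divided by the 5′ reading gave 0.26 with PBS and 1.95 with LPS, while for Gapdh it was 1.02 and 0.96, and for beta-actin 1.33 and 1.39. The part of these array differences in the results was not tested.

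The cells carried several transcripts used as dendritic cell markers on both arrays, but not all. Xcr1 did not reach the measured level, and Flt3 did so with LPS (181) but not with PBS (62.1). Itgax (CD11c) read 2383 with PBS and 1691 with LPS (log2 difference -0.49), and the class II genes H2-Ab1 and H2-Aa read 5527 and 7849 (log2 difference 0.51) and 6707 and 9184 (log2 difference 0.45) on the PBS and LPS arrays, although a further probe set of H2-Aa had a log2 difference of -2.53. Macrophage transcripts were bright as well, with Csf1r, the receptor of macrophage colony-stimulating factor, at 9043 with PBS and 12166 with LPS (log2 difference 0.43) and Adgre1 (F4/80) at 2898 with PBS and 7695 with LPS (log2 difference 1.40). In such a mixed culture, fewer cells of a type and less RNA per cell cannot be told apart.

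Of the 12299 measured genes, 799 (6.50%) were higher with LPS by 2-fold or more, 1601 (13.0%) were lower by as much, and 9899 lay within 2-fold. The shares of 6.50% and 13.0% are the background beside which every list count below is to be read. The median log2 difference of all measured genes was -0.08. At least 4-fold apart were 169 genes on the higher and 343 on the lower side. The balance of directions followed the scaling of the arrays: 33.3% of the genes at least 2-fold apart were higher with the intensities as deposited, 56.6% after centring each array on its median, 53.9% after centring on its 75th percentile, 45.6% after quantile normalization and 19.0% after a shift that brought the poly-A controls together. The poly-A shift moved the median of all genes to -0.34, and the centrings and quantile normalization moved it to between 0.11 and 0.24. The direction also varied with brightness. Of 4 equal groups of genes by brightness, the brightest held 274 higher and 96 lower, and the dimmest 194 and 817. Among the 9962 genes at the measured level on both arrays 559 were higher and 660 lower. Of the 1492 genes at that level with PBS but not with LPS 899 were lower. Of the 591 at that level with LPS but not with PBS 240 were higher. The way these last groups are defined fixes their direction, so only their sizes are informative.

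**Figure D1:**
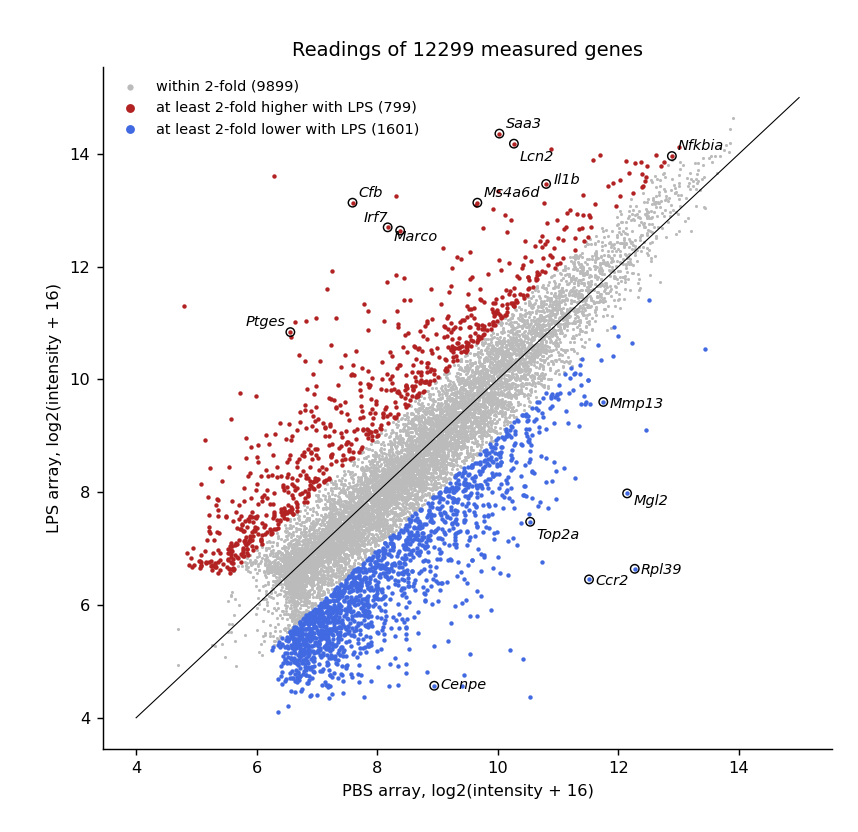
Readings of the 12299 measured genes on the PBS array (horizontal) and the LPS array (vertical), both as log2(intensity + 16), 1 point a gene. Red points are the 799 genes at least 2-fold higher with LPS, blue points the 1601 at least 2-fold lower and grey points the rest; 899 of the blue points are genes at the measured level with PBS but not with LPS, and circles mark genes named in the text.

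The LPS receptor and its signalling chain differed little between the arrays at 24 h. Of 19 measured receptor genes 1 was higher, 2 were lower and 16 lay within 2-fold (median log2 difference 0.16). Tlr4, the signalling receptor itself, read 1482 with PBS and 1055 with LPS (log2 difference -0.48), though its 4 probe sets spanned -3.09 to -0.48. Its partner Ly96 read 653 with PBS and 922 with LPS (log2 difference 0.49), and Cd14, which hands LPS over to that pair, read 6827 with PBS and 12727 with LPS (log2 difference 0.90). Tlr1, a partner of Tlr2 in the sensing of lipoproteins, was the member that was higher, at 98.6 with PBS and 890.2 with LPS (log2 difference 2.98). Cd180, a relative of Tlr4 that restrains it in myeloid cells, read 354 with PBS and 65 with LPS (log2 difference -2.19), and the LPS-binding protein gene Lbp read 130.2 with PBS and 35.8 with LPS (log2 difference -1.50).

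Below the receptor, 15 of 16 adaptors and kinases lay within 2-fold, with Myd88 at 1192 with PBS and 1488 with LPS (log2 difference 0.32), Ticam1 at 152 with PBS and 183 with LPS (log2 difference 0.25) and Traf6, a ubiquitin ligase of the pathway, at 272 with PBS and 188 with LPS (log2 difference -0.49). The 5 probe sets of Traf6 ran from -1.35 to 0.12. The ubiquitin ligase gene Peli1 read 343 with PBS and 1413 with LPS (log2 difference 1.99), but its 5 probe sets ran from -2.12 to 1.99. Among NF-kB subunits and their inhibitors 13 of 14 lay within 2-fold. The exception was Nfkbia (IkB-alpha), the inhibitor that NF-kB itself induces, at 7569 with PBS and 15949.8 with LPS (log2 difference 1.07), with all 5 of its probe sets between 0.86 and 1.07. Rela, the main activating subunit, read 2112 with PBS and 1845 with LPS (log2 difference -0.19). Relb, a subunit prominent in mature dendritic cells, read 600.4 with PBS and 676 with LPS (log2 difference 0.17).

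The genes that end an LPS signal did differ. Of 21 measured feedback inhibitors 9 were at least 2-fold higher, 3 lower and 9 within 2-fold, with a median log2 difference of 0.72. Socs3, which switches off cytokine receptor signalling, read 627 with PBS and 4613 with LPS (log2 difference 2.85), and its 3 probe sets lay between 2.46 and 3.20. Socs1, of the same family, read 67.3 with PBS and 581 with LPS (log2 difference 2.84). Usp18, which blocks the type I interferon receptor, read 729 with PBS and 3509 with LPS (log2 difference 2.24). Irak3 (IRAK-M), a kinase-dead brake on Myd88 signalling, read 723 with PBS and 2429 with LPS (log2 difference 1.73), and both of its probe sets were at least 2-fold higher. Tnfaip3 (A20), which removes ubiquitin chains from the pathway, read 1598 with PBS and 3499.8 with LPS (log2 difference 1.12). Its partner Tnip1 read 1691 with PBS and 3878 with LPS (log2 difference 1.19). The anti-inflammatory cytokine Il10 read 49 with PBS and 205 with LPS (log2 difference 1.76).

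Other brakes read lower, but 3 of 21 is near the 13.0% of all measured genes that were lower. Atf3, a repressor of cytokine genes, read 1633 with PBS and 523 with LPS (log2 difference -1.61), Trib1 read 308 with PBS and 129.8 with LPS (log2 difference -1.15) and Sigirr, a receptor of the family that restrains it, read 279 with PBS and 121 with LPS (log2 difference -1.11). Among the MAP kinase phosphatases, 3 of 11 were higher and 1 was lower. They were Dusp4 at 81.8 with PBS and 262 with LPS (log2 difference 1.50), Dusp16 at 439 with PBS and 1235 with LPS (log2 difference 1.46), Dusp14 at 35.1 with PBS and 119 with LPS (log2 difference 1.40) and, on the lower side, Dusp22 at 681 with PBS and 275 with LPS (log2 difference -1.26). The immediate early genes, which peak within the first hours of a stimulus, were mixed, with 3 higher, 4 lower and 14 of 21 within 2-fold. Batf, a leucine zipper factor that partners Jun proteins, read 219 with PBS and 935 with LPS (log2 difference 2.02). Egr2 read 1452 with PBS and 459 with LPS (log2 difference -1.63), with both probe sets lower, and Klf2, a factor of resting myeloid cells, read 2296 with PBS and 855 with LPS (log2 difference -1.41). Egr3 had 1 probe set at a log2 difference of 2.53 and another at -2.37, so its direction depended on the probes.

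Inflammatory cytokines were among the lists with the larger differences, with 11 of 18 measured members at least 2-fold higher, against 6.50% of all genes, and a median log2 difference of 1.21. Il1b read 1770.3 with PBS and 11315 with LPS (log2 difference 2.67), and Il1a, its fellow ligand, read 1155 with PBS and 4288 with LPS (log2 difference 1.88). Il6, the inducer of acute phase proteins, read 568 with PBS and 2974 with LPS (log2 difference 2.36). Both chains of interleukin-12, the cytokine that steers T cells to interferon-gamma, were higher: Il12b (p40) read 85.9 with PBS and 535 with LPS (log2 difference 2.44), with its other probe set at 1.17, and Il12a (p35) read 105 with PBS and 562 with LPS (log2 difference 2.26). Tnf read 296 with PBS and 631 with LPS (log2 difference 1.05), just past 2-fold.

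Growth factors of granulocytes and macrophages were in the same list. Csf3 (G-CSF) read 92.7 with PBS and 315 with LPS (log2 difference 1.61) and Csf2 (GM-CSF) 23.8 with PBS and 86.2 with LPS (log2 difference 1.36). Csf1, the growth factor of macrophages, was the member that was lower, at 557 with PBS and 212 with LPS (log2 difference -1.33), although its 4 probe sets ranged from -1.33 to -0.13. Interferon-beta itself (Ifnb1) was below the measured level on both arrays, at 33.7 with PBS and 25.2 with LPS (log2 difference -0.27), and had passed only through the third array, where it read 98.

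Around interleukin-1, 4 of 15 inflammasome and pyroptosis genes were higher and none lower. Il18bp, the soluble trap of interleukin-18, read 153 with PBS and 1180.1 with LPS (log2 difference 2.83). Casp4 (caspase-11), the intracellular sensor of LPS, read 592 with PBS and 1476 with LPS (log2 difference 1.29). Gsdmd, which forms the pore that Casp4 opens, read 710.0 with PBS and 1595 with LPS (log2 difference 1.15). Nlrp3 read 2182 with PBS and 1727 with LPS (log2 difference -0.34) and Casp1 1880.1 with PBS and 2767 with LPS (log2 difference 0.55). In the TNF superfamily 3 of 17 were higher and 1 lower. Cd40, through which T cells license dendritic cells, read 132 with PBS and 564 with LPS (log2 difference 1.97), with its 3 probe sets between 1.97 and 2.90. Tnfsf10 (TRAIL) read 254 with PBS and 59.2 with LPS (log2 difference -1.84). Tnfsf13b (BAFF) read 171 with PBS and 371 with LPS (log2 difference 1.05), but its other probe set had a log2 difference of -1.80.

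**Figure D2:**
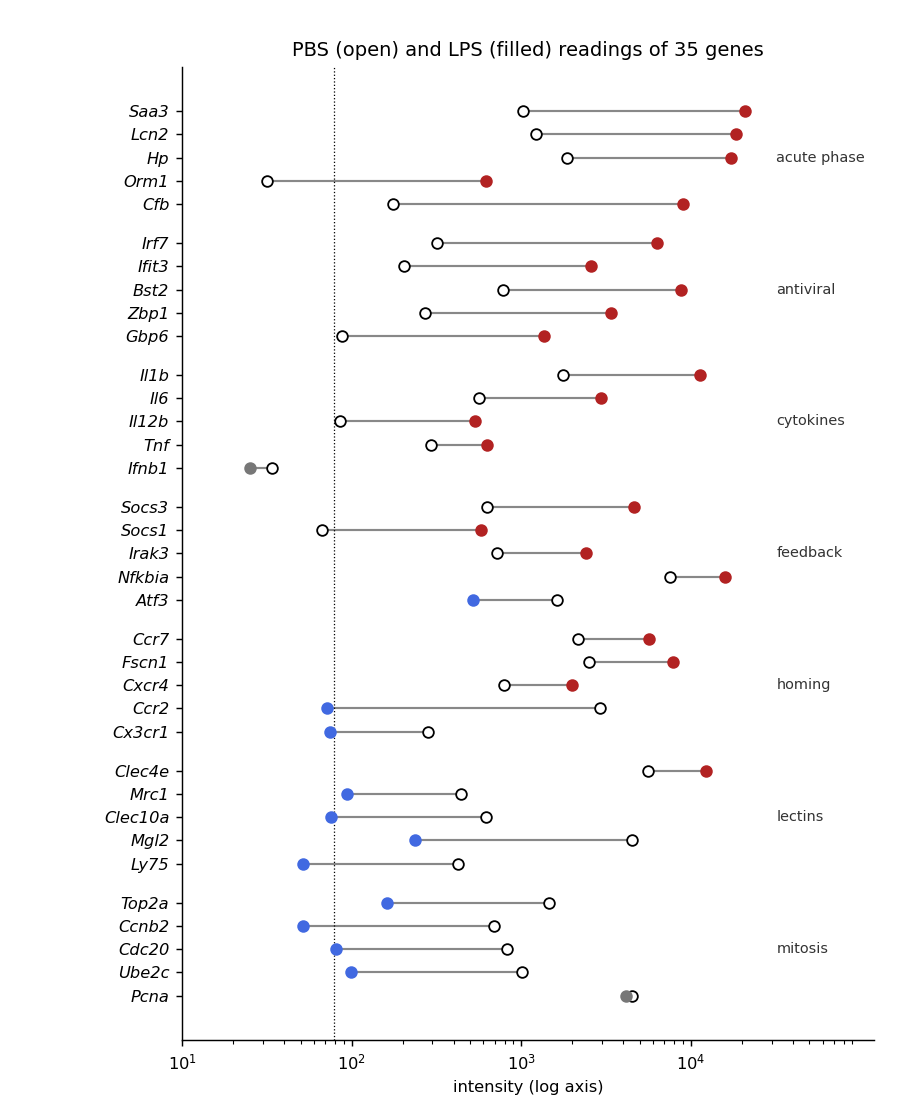
Readings of 35 genes from 7 groups of the text, on a log axis of intensity. Open circles are PBS, filled circles LPS (red at least 2-fold higher, blue at least 2-fold lower, grey within 2-fold), and the dotted line is the measured level of 78.9; Ccr2, Cx3cr1, Clec10a, Ly75 and Ccnb2 lie above this line with PBS and below it with LPS, and Ifnb1 lies below it on both arrays.

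Chemokines lay on both sides. Of 12 measured CXC chemokines 4 were higher, 3 lower and 5 within 2-fold. Cxcl5, an attractant of neutrophils, read 47.6 with PBS and 824 with LPS (log2 difference 3.72). Cxcl1, another of that kind, read 2019 with PBS and 7223 with LPS (log2 difference 1.83), and all 3 of its probe sets were at least 2-fold higher. Cxcl9, an attractant of activated T cells, read 42.5 with PBS and 163 with LPS (log2 difference 1.62). Cxcl10, induced by interferon, read 1283 with PBS and 1649 with LPS (log2 difference 0.36), a difference under 2-fold. Cxcl11 read 252 with PBS and 60.8 with LPS (log2 difference -1.80), with its other probe set at -2.28. The platelet chemokine gene Ppbp read 2597 with PBS and 561 with LPS (log2 difference -2.18) and the stromal chemokine gene Cxcl12 169.8 with PBS and 25.3 with LPS (log2 difference -2.17).

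The neutrophil attractants Cxcl2 and Cxcl3 lay within 2-fold. Cxcl2 read 6975 with PBS and 10398 with LPS (log2 difference 0.57), and Cxcl3 read 6340.0 with PBS and 9043 with LPS (log2 difference 0.51). The NF-kB site was searched as GGGANNTTCC on both strands of the 250 bases before and the 50 bases after each gene start. It was found in 4 of the 9 CXC chemokine promoters of the RefSeq table (Cxcl1, Cxcl2, Cxcl3 and Cxcl10), against 1.63% of all 27025 genes with a promoter there and 1.90% of measured genes whose log2 difference was at most 0.32 in size (below, genes of small difference). The site was found in 3 of 14 inflammatory cytokine promoters and in 0 of 10 promoters of CC and other chemokines. Among the 183 measured genes with it 8.20% were at least 2-fold higher with LPS, and among the 9773 without it 6.46%. Genes at least 4-fold higher had it in 4 of 131 cases and genes at least 4-fold lower in 5 of 277. The 3 stretches below were picked as the largest log2 differences among these cytokines and chemokines with a match. They show that Cxcl1, which was at least 2-fold higher, and Cxcl2, which was not, share the same letters, next to Il6. They come from RefSeq on build GRCm38.p6 and lie on the plus strand at chr5:90891154-90891204 (Cxcl1), chr5:90903782-90903832 (Cxcl2) and chr5:30013050-30013099 (Il6). Capitals mark the NF-kB letters, which in Cxcl1 and Cxcl2 are 2 matches 1 base apart on opposite strands. A match is a string of letters and not a shown binding site.
Cxcl1: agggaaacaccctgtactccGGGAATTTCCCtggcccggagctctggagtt
Cxcl2: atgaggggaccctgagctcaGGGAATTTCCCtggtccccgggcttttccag
Il6: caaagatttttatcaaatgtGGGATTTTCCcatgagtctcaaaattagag

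Among CC and other chemokines 6 of 15 were higher and none was lower. Ccl5, an attractant of T cells, read 3295 with PBS and 16143 with LPS (log2 difference 2.29). Ccl2, which calls in monocytes, read 436 with PBS and 2095 with LPS (log2 difference 2.22), and Ccl3, an attractant of macrophages, read 1687 with PBS and 5942 with LPS (log2 difference 1.81). Xcl1, the ligand that cross-presenting dendritic cells follow, read 48.7 with PBS and 443 with LPS (log2 difference 2.83). Ccl22, a chemokine of mature dendritic cells, read 1740.3 with PBS and 5414 with LPS (log2 difference 1.63). Ccl17, which shares its receptor, read 3217 with PBS and 5637 with LPS (log2 difference 0.81).

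Chemokine receptors also lay on both sides. Of 11 measured members 3 were higher and 5 lower, against 6.50% and 13.0% of all genes. Ccr7, the lymph node homing receptor, read 2163 with PBS and 5689 with LPS (log2 difference 1.39), and Cxcr4, the receptor of Cxcl12, read 796 with PBS and 1989 with LPS (log2 difference 1.30). Ccr2, which brings monocytes out of marrow towards Ccl2, read 2909 with PBS and 71.7 with LPS (log2 difference -5.06). All 4 probe sets of Ccr2 were lower, with log2 differences from -7.23 to -2.10, and the third array read 4448 for the same probe set as above. Cx3cr1, the fractalkine receptor, read 283 with PBS and 74.4 with LPS (log2 difference -1.73). Among other chemoattractant receptors 1 of 15 was higher, the formyl peptide receptor Fpr2 at 3851 with PBS and 11430.4 with LPS (log2 difference 1.57), and none was lower.

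Interferon-stimulated genes made up a large block on the higher side. Of 25 measured antiviral effectors 18 were higher by 2-fold or more, against 6.50% of all genes, and 2 lower by as much. The median log2 difference was 1.75. Ifit3, which works with Ifit1 against viral RNA, read 203 with PBS and 2583 with LPS (log2 difference 3.57). Ifit1 itself read 590.0 with PBS and 3995 with LPS (log2 difference 2.73). Bst2 (tetherin), which holds budding virus at the membrane, read 783 with PBS and 8735 with LPS (log2 difference 3.45). Oas1a, a synthetase that answers double-stranded RNA, read 1104 with PBS and 7746 with LPS (log2 difference 2.79). Its relative Oas3 read 174 with PBS and 1066 with LPS (log2 difference 2.51). Isg20, an exonuclease of viral RNA, read 161 with PBS and 1375 with LPS (log2 difference 2.98), and Rsad2 (viperin) read 1549 with PBS and 5264 with LPS (log2 difference 1.75), with its 3 probe sets between 1.68 and 1.95.

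Not every antiviral gene followed. Mx1 read 847 with PBS and 937 with LPS (log2 difference 0.14), while its relative Mx2 read 91.8 with PBS and 238 with LPS (log2 difference 1.24). Ifitm6 read 1156 with PBS and 224 with LPS (log2 difference -2.29), and Eif2ak2 (PKR) read 679 with PBS and 161 with LPS (log2 difference -1.97), with its 3 probe sets spread from -1.97 to 0.76.

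Upstream of these genes, the factor Irf7, which amplifies interferon production, read 317 with PBS and 6370.2 with LPS (log2 difference 4.26), and 6 of 9 interferon regulatory factor genes lay within 2-fold. Irf3, the factor that Ticam1 activates without new transcription, read 949.6 with PBS and 821 with LPS (log2 difference -0.21), with 4 probe sets between -1.17 and 0.40. Irf8, a factor of cross-presenting dendritic cells, read 886 with PBS and 1874 with LPS (log2 difference 1.07), whereas its other probe set had a log2 difference of -0.54, and the sign of the gene turned under quantile normalization (log2 difference -0.61). Irf2, a repressor of interferon genes, read 1503 with PBS and 222 with LPS (log2 difference -2.68) from 1 probe set. Of 15 receptor, JAK and STAT genes 2 were higher and none lower, namely Stat4 at 289 with PBS and 968 with LPS (log2 difference 1.69) and Stat2, a subunit of the interferon-activated complex, at 156 with PBS and 391 with LPS (log2 difference 1.24).

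Sensors of nucleic acid were partly in this block, with 6 of 15 higher and none lower. Zbp1, a sensor of Z-form nucleic acid, read 269.7 with PBS and 3388 with LPS (log2 difference 3.57), and both of its probe sets were more than 8-fold higher. The RNA helicase sensor Ifih1 (MDA5) read 705 with PBS and 2188 with LPS (log2 difference 1.61). Ddx58 (RIG-I), a sensor of the same family, read 645 with PBS and 1516 with LPS (log2 difference 1.21). Their relative Dhx58 read 193 with PBS and 971 with LPS (log2 difference 2.24). Mavs, their adaptor, read 434 with PBS and 297 with LPS (log2 difference -0.53), and Sting1, the adaptor of the DNA sensor Cgas, read 520.4 with PBS and 460.0 with LPS (log2 difference -0.17).

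GTPases that attack the vacuoles of pathogens were higher in 7 of 10 members and lower in none. Gbp6 read 88.2 with PBS and 1374 with LPS (log2 difference 3.74), with its other probe set at 2.95. The immunity-related GTPase Igtp read 650.2 with PBS and 2063 with LPS (log2 difference 1.64) and Irgm2 433 with PBS and 976 with LPS (log2 difference 1.14). Iigp1 was near the measured level, at 46.7 with PBS and 90.8 with LPS (log2 difference 0.77). Of 12 PARP and Schlafen genes 8 were higher and none lower, with a median of 1.40. The Schlafen gene Slfn1 read 332 with PBS and 2718 with LPS (log2 difference 2.97), and Slfn4 read 658 with PBS and 4501 with LPS (log2 difference 2.75). Parp12, an ADP-ribosyltransferase induced by interferon, read 666 with PBS and 2121 with LPS (log2 difference 1.65).

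Enzymes that attach or remove ubiquitin and its relatives were higher in 9 of 26 cases and lower in none. Enzymes of ISG15, the interferon-induced modifier, were among them. Its activating enzyme Uba7 read 237 with PBS and 773 with LPS (log2 difference 1.64). Its conjugating enzyme Ube2l6 read 61.1 with PBS and 389 with LPS (log2 difference 2.39), and the ligase Herc6 read 377 with PBS and 1519 with LPS (log2 difference 1.96). Usp18, which removes the modifier, is given above. General conjugating enzymes such as Ube2h, at 511 with PBS and 468 with LPS (log2 difference -0.12), lay within 2-fold.

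Promoters of these genes shared letters that the comparison had not used. The interferon-stimulated response element was searched as GAAANNGAAA on both strands of the same 300-base window. It occurred in 10 of 19 antiviral effector promoters, in 6 of 7 promoters of the vacuole GTPases and in 4 of 11 of the sensors, against 3.99% of all genes with a promoter and 3.26% of genes of small difference. Among the 366 measured genes with the element 15.8% were at least 2-fold higher with LPS, and among the 9590 without it 6.13%. Genes at least 4-fold higher had it in 14 of 131 cases and genes at least 4-fold lower in 13 of 277. The stretches below are those of 4 effectors whose values are given above. They were picked as the 4 largest higher differences among antiviral effectors and vacuole GTPases with a match. Where a gene had several promoters, that with the most matches was taken. Each stretch holds 2 copies of the element within a short distance. They are from RefSeq on build GRCm38.p6, at chr19:34583353-34583436 on the plus strand (Ifit3), chr19:34640765-34640833 on the plus strand (Ifit1), chr8:71537567-71537622 on the minus strand (Bst2) and chr5:120907510-120907565 on the minus strand (Oas1a). Capitals mark the element. In Ifit3 and Ifit1 the 2 matches are apart and read on the opposite strand as TTTCNNTTTC, and in Bst2 and Oas1a they overlap.
Ifit3: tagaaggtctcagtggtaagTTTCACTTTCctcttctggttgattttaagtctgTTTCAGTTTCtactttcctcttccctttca
Ifit1: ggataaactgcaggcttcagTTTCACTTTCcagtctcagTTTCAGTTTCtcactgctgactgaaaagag
Bst2: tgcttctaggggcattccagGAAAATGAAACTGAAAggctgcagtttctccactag
Oas1a: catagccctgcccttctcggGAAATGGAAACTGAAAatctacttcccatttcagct

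The list with the largest median was that of Ms4a and Ly6 membrane proteins, with 10 of 12 measured members higher, none lower and a median log2 difference of 3.50. Ms4a proteins are small proteins that cross the membrane of leukocytes, and Ly6 proteins are anchored to it by lipid. Ms4a6b read 136 with PBS and 3862 with LPS (log2 difference 4.67), with its other probe set at 2.68. Ms4a4c read 78.5 with PBS and 1706 with LPS (log2 difference 4.19), and Ms4a6d read 794 with PBS and 8983 with LPS (log2 difference 3.47), with both probe sets of each higher. Ms4a6c read 128 with PBS and 3091 with LPS (log2 difference 4.43), but its other probe set had a log2 difference of -0.05. Ms4a7 read 304 with PBS and 3668 with LPS (log2 difference 3.53), with its other probe set at -0.32. Ly6i read 301 with PBS and 9782 with LPS (log2 difference 4.95) from a single probe set, and Plac8, a small cysteine-rich protein gene listed with them, read 144 with PBS and 2154 with LPS (log2 difference 3.77). Whether members of close sequence shared probes was not tested.

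The Ms4a genes are also neighbours in the genome. In RefSeq order among measured genes, the longest run of consecutive genes at least 2-fold higher held 10 genes, and it was Ccdc86, Ms4a15, 1 predicted gene, Ms4a8a, Ms4a7, Ms4a4c, Ms4a4b, Ms4a6c, Ms4a6b and Ms4a6d. Shorter runs of 3 included Gbp7, Gbp3 and Gbp2, then Slfn2, Slfn1 and Slfn4, then the antigen processing genes Psmb9, Tap1 and Psmb8, and the protease inhibitor genes Wfdc17, Wfdc18 and Wfdc21. Gbp7 read 1197 with PBS and 2536 with LPS (log2 difference 1.07), but its other probe set had a log2 difference of -0.51. On the lower side the longest run held 5 genes. It joined the lectin genes Asgr2, Mgl2 and Clec10a to Slc16a11 and Bcl6b. A run of 4 held the secreted ribonuclease genes Rnase4, Rnase6, Rnase2a and Ang4, and Rnase6 read 325 with PBS and 56.2 with LPS (log2 difference -2.24). Another of 4 held the Cd200 receptor family genes Cd200r1 and Cd200r4 with Ccdc80 and Slc35a5. Genes of a family often lie side by side.

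**Figure D3:**
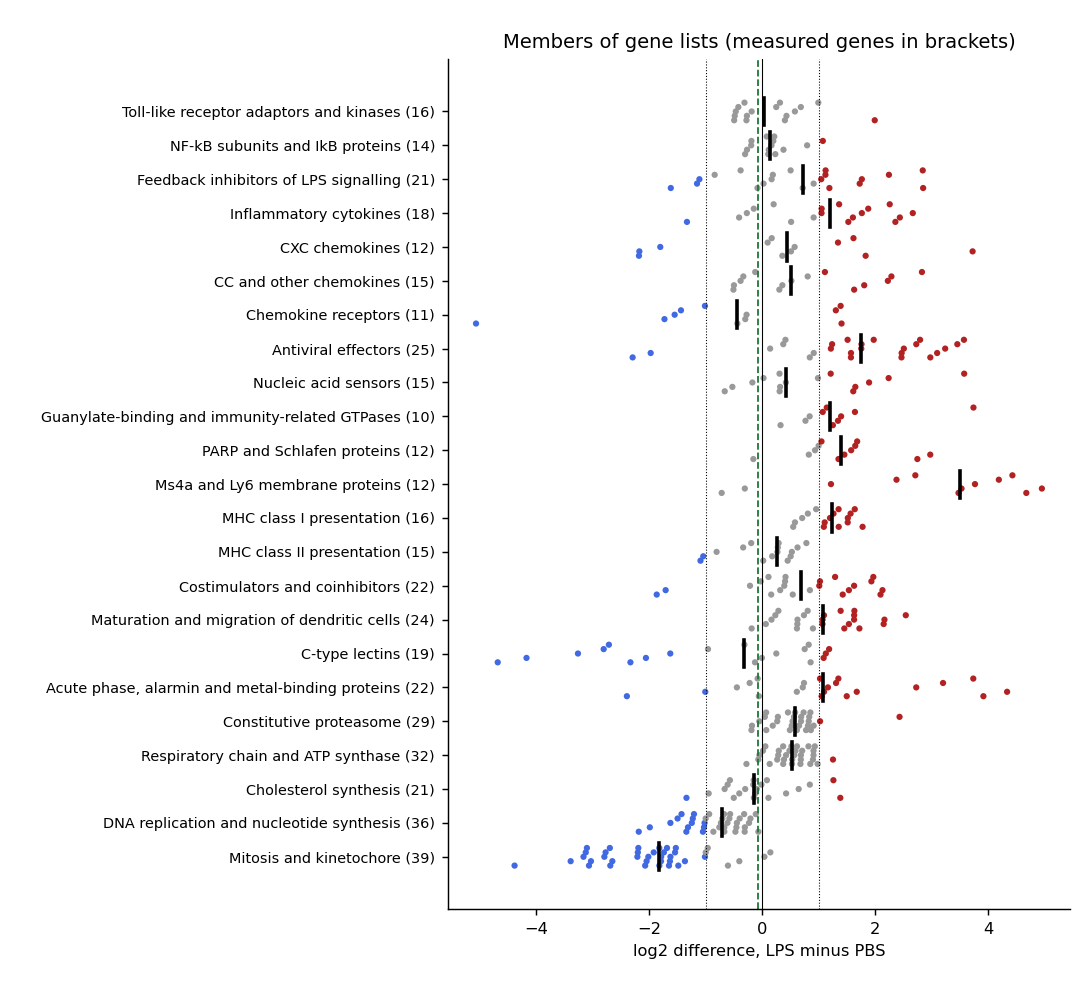
Log2 difference, LPS minus PBS, of the measured members of 23 gene lists, 1 point a gene (red at least 2-fold higher, blue at least 2-fold lower, grey within 2-fold); vertical offsets only separate points. Black bars are list medians, dotted lines the 2-fold limits and the dashed green line the median of all measured genes (-0.08); the Ms4a and Ly6 list has the highest median (3.50) and the mitosis list the lowest (-1.82), with 33 of its 39 members beyond the lower limit.

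Genes of presentation on MHC class I were higher from the proteasome to the surface. Of 16 measured genes 11 were at least 2-fold higher and none lower, with a median log2 difference of 1.23. Psmb9, a catalytic subunit of the immunoproteasome, read 584 with PBS and 2039 with LPS (log2 difference 1.78). Its fellow subunit Psmb8 read 1794 with PBS and 5621 with LPS (log2 difference 1.64), and Psmb10 read 1258 with PBS and 3622 with LPS (log2 difference 1.51). The peptide transporter Tap1 read 335 with PBS and 883 with LPS (log2 difference 1.35), and Tapbp (tapasin), which loads peptide, read 2705 with PBS and 7767 with LPS (log2 difference 1.52), with both probe sets higher. Nlrc5, the activator of class I genes, read 224 with PBS and 695 with LPS (log2 difference 1.56). The heavy chain H2-K1 read 6287 with PBS and 16083 with LPS (log2 difference 1.35). Beta-2-microglobulin (B2m), its light chain, read 8221 with PBS and 17727 with LPS (log2 difference 1.11). The constitutive proteasome lay mostly within 2-fold, in 27 of 29 members, at a median of 0.58. Psmb7, a catalytic subunit that the immunoproteasome replaces, read 585 with PBS and 3226 with LPS (log2 difference 2.43) from 1 probe set.

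MHC class II genes differed less. None of 15 was at least 2-fold higher, 2 were lower, and the median was 0.27. The invariant chain Cd74 read 6291 with PBS and 10839 with LPS (log2 difference 0.78), and Ciita, the master activator of the class, 141 with PBS and 121 with LPS (log2 difference -0.19). H2-DMa, which edits the peptides on class II molecules, read 1711 with PBS and 795 with LPS (log2 difference -1.09). Among cathepsins and lysosomal proteins 23 of 26 lay within 2-fold. The protease inhibitor cystatin C (Cst3) read 5663 with PBS and 14172 with LPS (log2 difference 1.32), the lysosomal protein gene Cd68 2972 with PBS and 6694 with LPS (log2 difference 1.17), and the class II processing protease Ctss 10212 with PBS and 14712 with LPS (log2 difference 0.53).

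Signals to T cells were higher in many cases. Of 22 costimulators and coinhibitors 10 were higher and 2 lower, and 7 of the called members had another probe set at least 2-fold apart in the same direction. Cd86, a ligand of Cd28 on T cells, read 693 with PBS and 1412 with LPS (log2 difference 1.01), just past 2-fold. Cd80, the other ligand, read 134 with PBS and 386 with LPS (log2 difference 1.43), and all 5 probe sets of the pair were at least 2-fold higher. The maturation marker Cd83 read 647 with PBS and 1904 with LPS (log2 difference 1.53), and Cd274 (PD-L1), a ligand that restrains T cells, 2872 with PBS and 5856 with LPS (log2 difference 1.02). Slamf1, a receptor that binds its own kind on other cells, read 94.6 with PBS and 406 with LPS (log2 difference 1.93). Slamf6 of the same family read 162 with PBS and 760.3 with LPS (log2 difference 2.13). Il2ra (CD25), the high-affinity chain of the interleukin-2 receptor, read 65.3 with PBS and 331 with LPS (log2 difference 2.09). Icam1, an adhesion molecule of the synapse, read 1502 with PBS and 1879 with LPS (log2 difference 0.32). Cd200, which calms myeloid cells, read 581 with PBS and 1827 with LPS (log2 difference 1.63), whereas its receptor Cd200r1 read 2803 with PBS and 758 with LPS (log2 difference -1.86), with its other probe set at -5.64.

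Genes of maturation and migration were higher in 13 of 24 cases and lower in none, with a median of 1.07. Fscn1 (fascin), which bundles actin in the dendrites, read 2518 with PBS and 7838 with LPS (log2 difference 1.63), with 4 probe sets between 0.85 and 2.86. Serpinb9, an inhibitor of granule proteases, read 562 with PBS and 1889.6 with LPS (log2 difference 1.72), and its relative Serpinb6b read 148 with PBS and 936 with LPS (log2 difference 2.54). Il15ra, which presents interleukin-15 to lymphocytes, read 151 with PBS and 730.4 with LPS (log2 difference 2.16), and its cytokine Il15 204 with PBS and 183 with LPS (log2 difference -0.15). Traf1 read 404 with PBS and 1849 with LPS (log2 difference 2.15), but its other probe set had a log2 difference of 0.01.

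Structural genes of movement differed little as a list, with 30 of 36 actin and motility genes within 2-fold. Pfn1 (profilin), which feeds actin filaments, read 4604 with PBS and 12996 with LPS (log2 difference 1.49), while Actb read 12694 with PBS and 12969.9 with LPS (log2 difference 0.03). Of 34 integrin, tetraspanin and adhesion genes 5 were higher and 6 lower, against 6.50% and 13.0% of all genes. Cd47, the signal against being eaten, read 3962 with PBS and 8665 with LPS (log2 difference 1.13), but its 5 probe sets ran from -1.71 to 1.13 and 2 of them were at least 2-fold lower. Itgb8, an activator of TGF-beta, read 20.6 with PBS and 224 with LPS (log2 difference 2.71). Itgb7, a subunit of gut-homing integrins, read 1190.2 with PBS and 374 with LPS (log2 difference -1.63). Itga1, a collagen receptor subunit, read 1028 with PBS and 305 with LPS (log2 difference -1.70), with both probe sets lower. Among matrix proteases and their inhibitors 14 of 19 lay within 2-fold. Timp1, an inhibitor of the proteases, read 272 with PBS and 1074 with LPS (log2 difference 1.92). The collagenase Mmp13 read 3431 with PBS and 761 with LPS (log2 difference -2.15), and Mmp19 read 1894 with PBS and 279 with LPS (log2 difference -2.69), with both probe sets lower.

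Lectins that take up sugars were lower more often than higher. Of 19 measured C-type lectins 3 were higher and 8 lower, against 13.0% of all genes, although the median of -0.31 changed sign under some scalings. Mgl2, which binds galactose sugars, read 4517 with PBS and 236 with LPS (log2 difference -4.17). Clec10a (MGL1), its close relative, read 623 with PBS and 75.6 with LPS (log2 difference -2.80). Mrc1, the mannose receptor, read 441 with PBS and 94 with LPS (log2 difference -2.06), and Ly75 (DEC-205), an uptake receptor of dendritic cells, 427 with PBS and 51.6 with LPS (log2 difference -2.71). Asgr2, a subunit of the receptor that clears asialoglycoproteins, read 675 with PBS and 11 with LPS (log2 difference -4.68). Clec4e (Mincle), an activating receptor for mycobacterial glycolipid, was on the other side at 5632 with PBS and 12320.2 with LPS (log2 difference 1.13). Clec7a (dectin-1), the receptor of fungal glucan, read 6590.3 with PBS and 3388 with LPS (log2 difference -0.96).

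Other uptake receptors pointed both ways. Marco, a scavenger receptor for bacteria, had the second largest higher difference, after Ms4a6b, among genes whose probe sets all agreed, at 273 with PBS and 6632 with LPS (log2 difference 4.53), and its other probe set lay at 4.45. Of 12 scavenger receptors 3 were higher and 3 lower. Cd36, which takes up fatty acids and oxidized lipoprotein, read 4052 with PBS and 1733 with LPS (log2 difference -1.22), with all 3 probe sets lower, and Lrp1 read 1278 with PBS and 596 with LPS (log2 difference -1.08). Of 23 Fc and inhibitory receptors 5 were higher and 3 lower. Fcgr4, an activating receptor of IgG, read 214 with PBS and 1858 with LPS (log2 difference 3.03). Fcgr1, the high-affinity receptor, read 457 with PBS and 3112 with LPS (log2 difference 2.73), and their signalling chain Fcer1g read 4954 with PBS and 14719 with LPS (log2 difference 1.57). The inhibitory receptor gene Cd300a read 1658 with PBS and 211 with LPS (log2 difference -2.88). Genes of alternative activation, the state that interleukin-4 brings about, were higher in 1 and lower in 6 of 18 cases. Retnla (RELM-alpha) read 1607 with PBS and 686 with LPS (log2 difference -1.21). Klf4, a factor of that state, read 1360.3 with PBS and 233 with LPS (log2 difference -2.47), with both probe sets lower. Arg1 (arginase-1) read 6791 with PBS and 6554 with LPS (log2 difference -0.05), and the chitinase-like gene Chil3 read 13152 with PBS and 17534 with LPS (log2 difference 0.41).

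Acute phase proteins, are made in the liver during infection and also by myeloid cells. Of 22 measured members 13 were higher and 2 lower, with a median of 1.07. Saa3 (serum amyloid A3) read 1028 with PBS and 21022 with LPS (log2 difference 4.33). Lcn2 (lipocalin-2), which withholds iron from bacteria, read 1217 with PBS and 18575 with LPS (log2 difference 3.91), and haptoglobin (Hp) 1868 with PBS and 17296 with LPS (log2 difference 3.20). Orm1, another plasma protein of the acute phase, read 31.6 with PBS and 618 with LPS (log2 difference 3.73). Slc11a1 (NRAMP1), which pumps metal out of the phagosome, read 729 with PBS and 4911 with LPS (log2 difference 2.73), and the metallothionein gene Mt2 3105 with PBS and 8796 with LPS (log2 difference 1.50). Ptx3, a soluble pattern receptor, read 1437 with PBS and 3581 with LPS (log2 difference 1.31). The iron exporter gene Slc40a1 (ferroportin) was on the lower side at 578 with PBS and 97.1 with LPS (log2 difference -2.39). S100a8, whose product pairs with that of S100a9, read 6074 with PBS and 9306 with LPS (log2 difference 0.61), and S100a9 read 3877 with PBS and 1924 with LPS (log2 difference -1.0).

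Complement was led by factor B. Cfb, a component of the alternative pathway, read 177 with PBS and 8983 with LPS (log2 difference 5.54), the largest higher difference among the named genes at the measured level on both arrays. C1ra, a protease of the classical pathway, read 427 with PBS and 1956 with LPS (log2 difference 2.15). The next protease, C1s1, read 125 with PBS and 548 with LPS (log2 difference 2.00). Their partner C1qb, which binds antibody, read 2814 with PBS and 1812 with LPS (log2 difference -0.63), with a further probe set at -1.30. In all 3 of 16 complement genes were higher and none was lower.

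Enzymes of lipid mediators and of nitric oxide differed at single steps. Ptges, which makes prostaglandin E2, read 78.3 with PBS and 1818 with LPS (log2 difference 4.28), with 3 probe sets between 2.27 and 4.28. Ptgs2 (cyclooxygenase-2), the step before it, read 282 with PBS and 889 with LPS (log2 difference 1.60). Alox5, the first enzyme of leukotriene synthesis, read 1042 with PBS and 429.7 with LPS (log2 difference -1.25). In that list 3 of 13 were higher and 2 lower. Nos2, which makes nitric oxide, read 39 with PBS and 213 with LPS (log2 difference 2.06). Acod1, which makes itaconate, read 3631 with PBS and 11022 with LPS (log2 difference 1.60), and Ido1, which breaks down tryptophan, read 45.4 with PBS and 133 with LPS (log2 difference 1.28). Gch1, which supplies the cofactor of Nos2, read 739 with PBS and 1521 with LPS (log2 difference 1.02), and the arginine transporter Slc7a2 2951 with PBS and 7543 with LPS (log2 difference 1.35). Ass1, which recycles citrulline to arginine, was the member on the lower side, against 5 of 15 on the higher side, at 127 with PBS and 37.2 with LPS (log2 difference -1.43).

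Receptors of growth factors and cytokines were split, with 4 higher and 5 lower of 27, against 6.50% and 13.0% of all genes. Both chains through which interleukin-6 signals were lower. Il6ra read 772 with PBS and 134 with LPS (log2 difference -2.39), with its other probe set at -0.48. Il6st (gp130) read 778 with PBS and 160.1 with LPS (log2 difference -2.17), with a further probe set at -0.20. Flt3, the receptor of a dendritic cell growth factor, read 62.1 with PBS and 181 with LPS (log2 difference 1.33). The GM-CSF receptor chain Csf2ra read 3676 with PBS and 4108 with LPS (log2 difference 0.16). Among genes of G proteins and cyclic AMP 25 of 30 lay within 2-fold. Rgs2, a brake on G protein signals, read 3852 with PBS and 1349 with LPS (log2 difference -1.50), with all 4 probe sets lower, and Gng12 read 1352 with PBS and 4175 with LPS (log2 difference 1.61).

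Metabolic genes showed few differences of 2-fold, but several lists leaned to the higher side under every scaling tried. Of 32 genes of the respiratory chain and ATP synthase 31 lay within 2-fold at a median of 0.53. These genes were bright, with median intensities of 2424 with PBS and 3330 with LPS. The brightest of the 4 equal groups of all measured genes also leaned higher, at a median of 0.19. The part of brightness in the lean was not tested. Of 26 genes of glycolysis and hypoxia 3 were higher, 1 lower, and the median was 0.47. Pfkfb3, which makes the activator of phosphofructokinase, read 310.5 with PBS and 1934 with LPS (log2 difference 2.58), and the lactate exporter gene Slc16a3 51.5 with PBS and 128 with LPS (log2 difference 1.09). Vegfa, the vascular growth factor induced by low oxygen, read 954 with PBS and 297 with LPS (log2 difference -1.63). Hif1a read 3759 with PBS and 4564 with LPS (log2 difference 0.28), and Slc2a1 (GLUT1) 1795 with PBS and 2704 with LPS (log2 difference 0.59). In the tricarboxylic acid cycle 22 of 24 lay within 2-fold, and the other 2 were subunits of succinate dehydrogenase. Sdhc read 372 with PBS and 1207 with LPS (log2 difference 1.66), and Sdhb read 1952 with PBS and 4024 with LPS (log2 difference 1.04). In serine and one-carbon synthesis and the pentose phosphate pathway 3 of 15 were lower and none higher. Phgdh, the first enzyme of serine synthesis, read 671 with PBS and 307 with LPS (log2 difference -1.09). Psat1, the next, read 546 with PBS and 254 with LPS (log2 difference -1.05), and Mthfd1l, a mitochondrial folate enzyme, read 335 with PBS and 149 with LPS (log2 difference -1.09).

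In lipid metabolism Dgat2, which makes triglyceride for droplets, read 215 with PBS and 2366 with LPS (log2 difference 3.37), with its other probe set at 3.59. Acsl5 read 1717 with PBS and 4553 with LPS (log2 difference 1.40), and 26 of 30 genes of fatty acids, droplets and efflux lay within 2-fold. Ch25h, whose product 25-hydroxycholesterol restrains viruses, read 166 with PBS and 460.1 with LPS (log2 difference 1.38), and 18 of 21 cholesterol genes lay within 2-fold. Sod2, the mitochondrial superoxide dismutase induced by NF-kB, read 5326 with PBS and 14779 with LPS (log2 difference 1.47), with 4 probe sets between 1.47 and 1.84. Genes targeted by the antioxidant factor Nrf2 lay on both sides, with 2 of 22 higher and 3 lower. These counts were near the 6.50% and 13.0% of all genes, and the median log2 difference was 0.37. Gsta3, a glutathione transferase, read 74.4 with PBS and 354 with LPS (log2 difference 2.03). Gclm, a subunit of glutathione synthesis, read 3336 with PBS and 1284 with LPS (log2 difference -1.37), and Gclc, the other subunit, read 733 with PBS and 332 with LPS (log2 difference -1.10). Nqo1, a quinone reductase, read 1180.0 with PBS and 565 with LPS (log2 difference -1.04). Of the amino acid carriers 12 of 14 lay within 2-fold, and Slc7a8 read 775 with PBS and 353 with LPS (log2 difference -1.10).

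Genes of protein folding and turnover were mostly within 2-fold. This held for 22 of 24 genes of the unfolded protein response, 16 of 17 heat shock genes and 20 of 20 autophagy genes. Hspa1b read 1032 with PBS and 342 with LPS (log2 difference -1.55), with all 3 probe sets lower, and Sdf2l1, a helper of folding in the endoplasmic reticulum, 855 with PBS and 1899 with LPS (log2 difference 1.14). Of 32 cytosolic ribosomal protein genes 29 lay within 2-fold and 3 were lower. Rpl39 read 4933 with PBS and 83.9 with LPS (log2 difference -5.63) from 1 probe set, far from its fellow subunits, and 4709 on the third array. Of 40 mitochondrial ribosomal genes 4 were higher and 2 lower, among them Mrpl33 at 927 with PBS and 44.2 with LPS (log2 difference -3.97), again from 1 probe set.

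Genes of cell division were almost all lower. Of 39 measured genes of mitosis and the kinetochore none was higher and 6 lay within 2-fold. At least 2-fold lower were 33, against 13.0% of all genes, and the median log2 difference was -1.82. Of the called members 16 had another probe set, and 12 of these had another at least 2-fold lower too. Cenpe, the motor that links kinetochores to microtubules, read 477 with PBS and 7.72 with LPS (log2 difference -4.38), with its other probe set at -2.25. Ccnb2, a cyclin of mitosis, read 692 with PBS and 51.8 with LPS (log2 difference -3.39). Ccna2, the cyclin that acts from DNA synthesis on, read 1131 with PBS and 125 with LPS (log2 difference -3.03). Cdc20, which turns on the destruction of cyclins, read 828 with PBS and 81.1 with LPS (log2 difference -3.12). Ube2c, the ubiquitin-conjugating enzyme of that step, read 1011 with PBS and 99 with LPS (log2 difference -3.16). Top2a, which untangles chromosomes, read 1471 with PBS and 162 with LPS (log2 difference -3.06), though its other probe set lay at -0.31. Cdk1, the kinase that starts mitosis, read 1474 with PBS and 407 with LPS (log2 difference -1.82). Pttg1 (securin), which holds sister chromatids together, read 2909 with PBS and 3221 with LPS (log2 difference 0.15), and the kinetochore gene Cenpf read 109.8 with PBS and 113 with LPS (log2 difference 0.04), with a further probe set at -2.87. They were the 2 members above 0.

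DNA replication genes went the same way by less. All 36 measured members had a log2 difference below 0, 13 of them at least 2-fold, and the median was -0.72. Rrm2, which supplies deoxynucleotides, read 1086 with PBS and 227 with LPS (log2 difference -2.18), with a further probe set at -0.49. Mcm7, a subunit of the replicative helicase, read 1218 with PBS and 443 with LPS (log2 difference -1.43), and Mcm2, another, read 530.2 with PBS and 221 with LPS (log2 difference -1.21). Pcna, the clamp of the polymerase, read 4485 with PBS and 4149 with LPS (log2 difference -0.11). After median centring the median of this list was -0.39.

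Cyclins, inhibitors and histones were mixed. Ccnd2, the cyclin that takes cells into the cycle, was on the opposite side of the mitotic cyclins at 333 with PBS and 3543 with LPS (log2 difference 3.35), and its 7 probe sets ran from 0.35 to 3.61. The proliferation marker Mki67 read 1441 with PBS and 462 with LPS (log2 difference -1.61), and the cell cycle inhibitor Cdkn1b (p27) read 1062 with PBS and 1628 with LPS (log2 difference 0.61). In this list 1 of 28 was higher and 7 lower. H2bc22, a histone gene, read 11.8 with PBS and 2503 with LPS (log2 difference 6.50) from 1 probe set and 10.1 on the third array, while 3 of 10 histone and chromatin genes were lower. Of 19 p53 and DNA damage genes 1 was higher and 2 lower, and of 21 apoptosis regulators 3 were higher and 2 lower. Cflar (c-FLIP), which blocks death receptors, read 717 with PBS and 1939.6 with LPS (log2 difference 1.42), with 5 probe sets between -0.83 and 1.80. The survival kinase Pim1 read 1586 with PBS and 3688 with LPS (log2 difference 1.21), with its other probe set at -0.38. Bcl2l11 (BIM), which promotes death, read 1127 with PBS and 513 with LPS (log2 difference -1.11), with its 5 probe sets on both sides of 0.

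Mitotic promoters were searched for the letters of cell cycle elements. The CCAAT box was searched as CCAAT and the CHR element as TTTGAA, both on either strand. Of 32 mitosis promoters 24 held CCAAT, 23 TTTGAA and 21 both. The shares among all genes with a promoter were 41.1%, 20.2% and 8.97%. CCAAT was as frequent in the promoters of 3 lists outside cell division, with 16 of 17 for cholesterol synthesis, 17 of 22 for the unfolded protein response and 12 of 16 for p53 targets. The vacuole GTPases had TTTGAA in 4 of 7 promoters, and the PARP and Schlafen genes in 6 of 10. The replication genes had CCAAT in 18 of 31 promoters and TTTGAA in 3 of 31. Among genes at least 4-fold lower in all, mitosis genes included, 14.1% held both elements, against 6.31% of genes of small difference. TTTGAA, with or without CCAAT, was in 20.6% of genes at least 4-fold lower and 19.8% of genes at least 4-fold higher. The 4 stretches below are from RefSeq on build GRCm38.p6 and show mitotic genes that read more than 8-fold lower. They are at chr9:70421525-70421741 on the minus strand (Ccnb2), chr2:164769681-164769925 on the plus strand (Ube2c), chr4:118437327-118437416 on the minus strand (Cdc20) and chr9:61946772-61946826 on the minus strand (Kif23, a motor of the dividing midbody, which read 703 with PBS and 67.9 with LPS (log2 difference -3.10)). Capitals mark CCAAT or ATTGG and TTTGAA or TTCAAA, the latter of each pair being the opposite strand, and in Ube2c a CCAAT and an ATTGG overlap.
Ccnb2: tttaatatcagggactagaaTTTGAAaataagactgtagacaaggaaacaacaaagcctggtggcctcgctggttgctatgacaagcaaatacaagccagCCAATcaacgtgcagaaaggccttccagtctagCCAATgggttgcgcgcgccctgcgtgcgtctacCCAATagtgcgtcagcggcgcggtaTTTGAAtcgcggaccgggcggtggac
Ube2c: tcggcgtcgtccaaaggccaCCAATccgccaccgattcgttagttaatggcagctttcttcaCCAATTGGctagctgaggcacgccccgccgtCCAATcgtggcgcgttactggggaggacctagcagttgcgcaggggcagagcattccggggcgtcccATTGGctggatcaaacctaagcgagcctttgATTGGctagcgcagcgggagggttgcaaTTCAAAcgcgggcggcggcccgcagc
Cdc20: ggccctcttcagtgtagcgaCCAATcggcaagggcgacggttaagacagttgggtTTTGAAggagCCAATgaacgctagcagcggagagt
Kif23: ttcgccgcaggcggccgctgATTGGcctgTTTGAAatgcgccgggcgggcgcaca

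**Figure D4:**
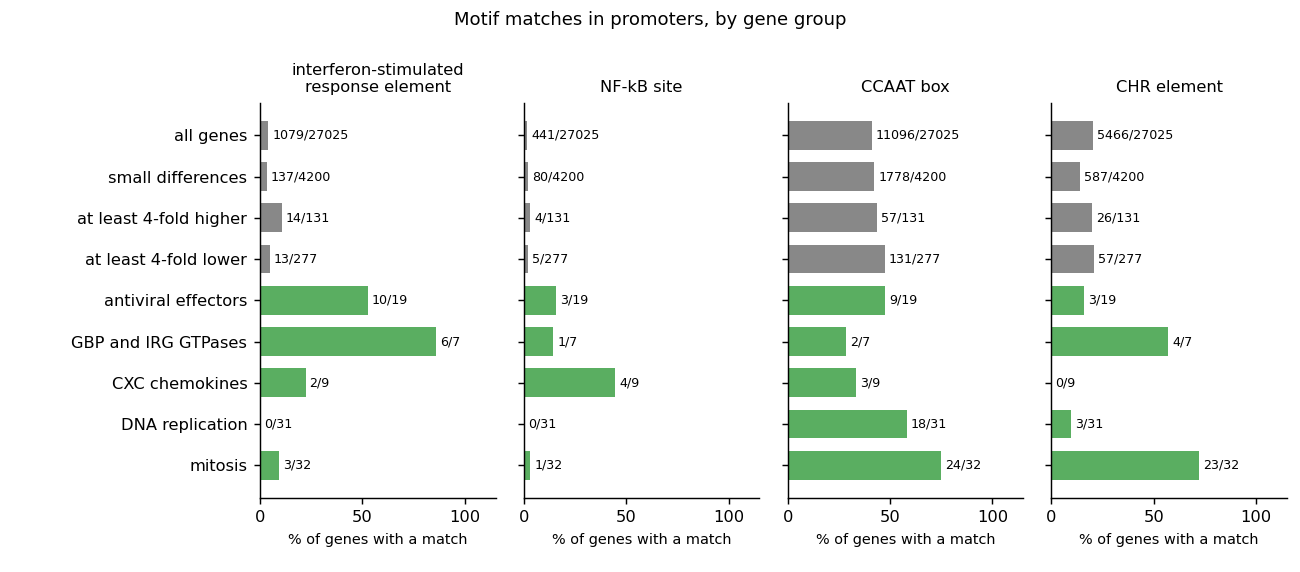
Share of genes (horizontal axis, percent) whose RefSeq promoter, 250 bases before to 50 after the gene start, holds each of 4 motifs on either strand, for 4 groups of genes by size of difference (grey) and 5 gene lists (green); numbers give genes with a match over genes with a promoter. The interferon element stands at 6 of 7 for the GBP and IRG GTPases and 3.99% of all genes, and the CHR element at 23 of 32 for mitosis and 20.2% of all genes.

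Factors of dendritic cell identity were within 2-fold in 21 of 29 cases. Batf3, required by cross-presenting cells, read 364 with PBS and 819 with LPS (log2 difference 1.13), and Zbtb46, a factor of conventional dendritic cells, 236 with PBS and 189.6 with LPS (log2 difference -0.29), with a further probe set of Zbtb46 at -1.35. Klf4 and Notch1 were on the lower side, Notch1 at 2929 with PBS and 738 with LPS (log2 difference -1.97), and both probe sets of each were lower. Tcf4, the factor of plasmacytoid dendritic cells, read 452 with PBS and 126 with LPS (log2 difference -1.72), with all 5 probe sets below 0. Spi1 (PU.1), shared by all myeloid cells, read 1875 with PBS and 1629 with LPS (log2 difference -0.20).

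Markers of other cells were summed on each array over all of their probe-set genes. The dendritic cell list, with 21 of 23 genes measured, summed to 52094 with PBS and 83407 with LPS. Of its measured genes 7 were higher and 0 lower, with 17 above and 4 below 0 and a median log2 difference of 0.72. This sum includes Bst2, an antiviral effector, at 783 with PBS and 8735 with LPS, the largest difference of the list. The macrophage and monocyte list, with 18 of 21 measured, summed to 61790 with PBS and 84689 with LPS. Of its measured genes 4 were higher and 3 lower, with 9 above and 9 below 0 and a median log2 difference of 0.03. The neutrophil list, with 15 of 18 measured, summed to 21747 with PBS and 37866 with LPS, and 2 of its measured genes were higher and 5 lower, with a median log2 difference of -0.27. Without Lcn2, an acute phase gene whose values are given above, it summed to 20529 with PBS and 19291 with LPS. Padi4, a neutrophil enzyme that modifies histones, read 792 with PBS and 59.6 with LPS (log2 difference -3.42). Mpo and Elane, which define neutrophil precursors, were not measured. The mast cell, basophil and eosinophil list summed to 1410 with PBS and 3589 with LPS, with 7 of 18 genes measured, 3 of them higher and 1 lower. Prg2, the major basic protein of eosinophils, read 117 with PBS and 1274 with LPS (log2 difference 3.28). Cpa3, a mast cell protease, read 96.3 with PBS and 549.5 with LPS (log2 difference 2.33), and Hdc, which makes histamine, read 111 with PBS and 536 with LPS (log2 difference 2.12). The lower member was Siglecf, a lectin of eosinophils, at 250.2 with PBS and 43.9 with LPS (log2 difference -2.15). Fcer1a, the IgE receptor chain that defines mast cells and basophils, did not reach the measured level. T cell markers (8 of 12 measured) summed to 4585 with PBS and 4522 with LPS, and B cell markers (5 of 13) to 2755 with PBS and 2611 with LPS. Single genes made up much of these sums, and members moved in opposite directions. Il7r, of the T cell list, read 3412 with PBS and 2754 with LPS (log2 difference -0.31). In the B cell list Blnk read 1034 with PBS and 1715 with LPS (log2 difference 0.72), and Vpreb3 788 with PBS and 39.9 with LPS (log2 difference -3.85). NK cell markers (2 of 10) summed to 541 with PBS and 512 with LPS. Erythroid and megakaryocyte markers (9 of 14) summed to 9828 with PBS and 9400 with LPS, and stromal and endothelial markers (7 of 14) to 2262 with PBS and 1539 with LPS. Most of the erythroid and megakaryocyte sum came from Ppbp, given above, and Pf4, at 5351 with PBS and 6024 with LPS (log2 difference 0.17). Cd3d, Cd79a and Ncr1, which define T, B and NK cells, were not measured, and neither was the collagen gene Col1a1. No marker gene read 0, but none could, since the lowest deposited value was 1. Lef1, kept with the T cell markers, read 37 with PBS and 855 with LPS (log2 difference 4.04) from 1 probe set. The plasmacytoid list (6 of 9 measured) summed to 2185 with PBS and 9701 with LPS, with 1 gene higher, 2 lower and a median log2 difference of -0.18. Without Bst2, the antiviral effector given above, it summed to 1402 with PBS and 966 with LPS. Siglech, which defines these cells, was not measured. The part of other cells in the differences was not tested.

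Some large differences lay outside these lists. Among genes with several measured probe sets that were all at least 2-fold apart in the same direction, 87 named genes were higher and 147 lower. On the higher side Ms4a6b, Marco, Ptges and Ms4a4c, given above, were among the 6 largest. The other 2 were Plpp1, a lipid phosphatase, at 97 with PBS and 2088 with LPS (log2 difference 4.22), and Kctd14 at 111 with PBS and 2157 with LPS (log2 difference 4.10), the latter with 4 probe sets. Fstl1, a secreted glycoprotein, read 95 with PBS and 1275 with LPS (log2 difference 3.54), Itm2a 135 with PBS and 1556 with LPS (log2 difference 3.38), the carbonic anhydrase gene Car13 185 with PBS and 1443 with LPS (log2 difference 2.86) and Gja1 (connexin 43) 26.7 with PBS and 277 with LPS (log2 difference 2.78), with 5 probe sets. On the lower side, after Ccr2 and Cenpe, came Gli2, a factor of hedgehog signalling, at 436 with PBS and 12.2 with LPS (log2 difference -4.00), the coagulation factor gene F5 at 725 with PBS and 40.0 with LPS (log2 difference -3.73) and Ramp1, a receptor subunit for the neuropeptide CGRP, at 826 with PBS and 55.3 with LPS (log2 difference -3.56). Ccdc80 read 1031 with PBS and 78.3 with LPS (log2 difference -3.47), Apcdd1, an inhibitor of Wnt signals, 466 with PBS and 48.6 with LPS (log2 difference -2.90), and the receptor phosphatase gene Ptprg 173 with PBS and 11.3 with LPS (log2 difference -2.79).

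Repeat readings within a gene limited how far single probe sets could be taken. Among higher genes 272 had a further measured probe set. In 134 of them (49.3%) a further one was higher by 2-fold or more, and in 32 a further one was lower by as much. Among lower genes 584 had one. In 266 of these (45.5%) a further one was lower by 2-fold or more, and in 22 higher by as much. Probe sets of a gene share the same RNA, so their agreement is no replicate. Some genes at least 2-fold apart are printed with their readings and no other probe set. Their further measured probe sets lay on the same side of 0, though not always by 2-fold. Genes named without readings, in the runs of neighbours, are not covered by this. Among the 15 genes with the largest lower differences that were at the measured level on both arrays, 8 had another probe set and 5 of these had none that was 2-fold lower. They were Zbtb7a, Stau1, Top2a, Zfp995 and Gcnt1. Zbtb7a, a transcriptional repressor, read 1691 with PBS and 93 with LPS (log2 difference -3.97), with a further probe set at 0.07. Stau1, which binds RNA, read 949 with PBS and 84.6 with LPS (log2 difference -3.26), with a further probe set at 0.37. The kinase gene Pik3cd, also among the 15, read 2476 with PBS and 291 with LPS (log2 difference -3.02), and its 5 probe sets ran up to 0.09. Among the 15 largest higher differences of that kind, 7 had another probe set and 6 of these had one that was 2-fold higher.

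**Figure D5:**
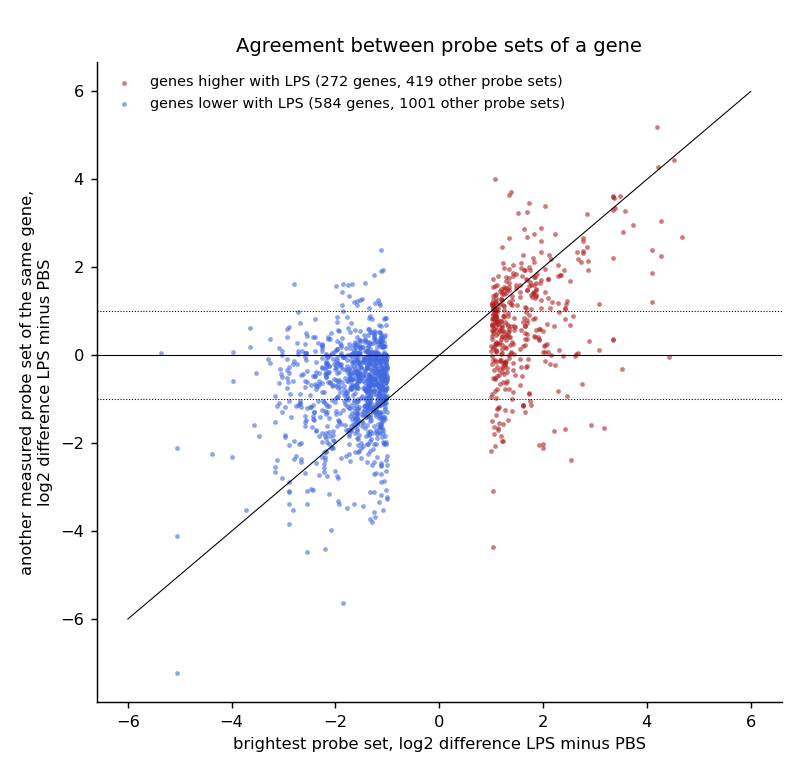
Log2 difference, LPS minus PBS, of a gene's brightest probe set (horizontal) against each other measured probe set of the same gene (vertical), for genes at least 2-fold higher (red, 272 genes) or lower (blue, 584 genes). The diagonal is equality and dotted lines are the 2-fold limits; many points lie between the dotted lines, where the other probe set of a called gene differed by less than 2-fold, and 32 red and 22 blue genes have a point past the opposite limit.

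Reference genes gave a view of the scale. Of 13 measured members 11 lay within 2-fold, with Hprt at 1579 with PBS and 1896 with LPS (log2 difference 0.26), Tbp at 267 with PBS and 239 with LPS (log2 difference -0.15) and Actb as given above. B2m, the class I light chain, was higher, and Polr2a, the large subunit of RNA polymerase II, read 1447 with PBS and 356 with LPS (log2 difference -1.98), although its other probe set had a log2 difference of -0.11.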

How the data were processed

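The deposited value table of the series was analysed, with 1 column of linear intensity per array and 1 row per probe set. Labelling, per the labels' protocols, turned 3 µg of total RNA into biotin-labelled complementary RNA for Affymetrix mouse arrays. The steps by which the authors summarised, background-corrected and scaled these intensities were not given in the sources used here. Deposited values went down to 1.

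No further scaling was applied. A pseudocount of 16 was added before log2, so differences of dim genes are understated. Probe sets came with the platform's gene symbols: 932 had several symbols, 9160 had none, and 64 were controls. Where a gene had several probe sets, that of highest mean log2 over the 3 arrays stood for it, and it counted as measured where that reached the median of all readings. With 1 array a group, called means at least 2-fold apart. Precision is limited by the number of arrays, and there are no read depths.

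The members and the 71 gene lists were chosen with earlier results of these data known. Named genes were, by rule, the 15 largest differences in each direction among genes whose probe sets all agreed, the 15 largest among genes at the measured level on both arrays, and for each list up to 6 members with the largest differences and up to 4 more showing its spread or defining it. Predicted genes were counted and not named. Exceptions chosen after their values were seen are Rnase6 and the genes of neighbouring runs.

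Promoters of RefSeq genes on GRCm38.p6 (250 bases before to 50 after the start) were matched by symbol, for 9956 measured genes. Scripts ran in Python 3.11.15 with numpy 2.4.6, pandas 2.3.3, scipy 1.17.1 and matplotlib 3.10.9, and were tested on simulated data. Alternatives covered scaling, pseudocount, filter, probe-set choice and use of the third array.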

Additional observations from a re-analysis of the deposited data

Results flagged for a closer look

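Probe sets with no gene symbol or several symbols, which the comparison leaves out, carried differences as well. Of 10092 such probe sets 4248 reached the measured level, and of these 184 (4.33%) were at least 2-fold higher with LPS and 1271 (29.9%) at least 2-fold lower, with a median log2 difference of -0.41. Among genes with 1 symbol the shares were 6.50% and 13.0%. The lower share of genes varied with brightness, at 26.6% in the dimmest of 4 equal groups and 3.12% in the brightest. Each gene is counted once, by its brightest probe set, while these 4248 are single probe sets, so the shares are not like for like. Signal outside the main measurement is what brought these probe sets up, and the cause of their lean to the lower side was not tested.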

How the results depend on the processing

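Each group held 1 array, so the size of array-to-array variation is unknown and leaving out a replicate was not possible. No paired analysis was possible because each group held 1 array. Under 12 alternatives, genes at least 2-fold higher, 799 as reported, were 1397 after median centring, 1305 after centring on the 75th percentile and 517 after the poly-A control shift, which raised the lower count to 2204. Genes at least 2-fold lower, 1601 as reported, were 1019 with a pseudocount of 64 and 775 with the measured level at the 75th percentile. The share of called genes that were higher, 33.3% as reported, was 56.6% after median centring, 53.9% after 75th percentile centring, 45.6% after quantile normalization, 19.0% after the poly-A shift, 36.0% with a pseudocount of 64, 43.0% with the stricter level, 36.1% without the third array and 31.1% with the median of a gene's probe sets. The number of list medians of at least 1 in size, 9 as reported, was 5 after the poly-A shift. The 5 lists that fell below 1 were inflammatory cytokines, MHC class I presentation, vacuole GTPases, acute phase proteins and maturation and migration. B cell markers, at -1.01, came in. Among 71 lists 34 kept the sign of their median under every alternative and 37 took both signs, the stricter level leaving no measured NK cell marker. Of 418 named or listed genes compared, 117 lay within 2-fold, and 19 of these took the other sign under at least 1 alternative. Of the 301 at least 2-fold apart 6 did, in 8 values: Irf8 under quantile normalization (-0.61); Stau1 (0.37), Bcl2l11 (0.18) and Vcam1 (0.23) without the third array; Tnfsf13b (-0.37) and Pdia4 (-0.24) with the median of probe sets; and Bcl2l11 (0.18) and Vcam1 (0.23) with probe sets for several transcripts left out. The last 2 settings and the third array act through which probe set stands for a gene. Dim genes are bounded by background: a reading near the pseudocount of 16 has little order.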
